A study of Danio rerio with 6 samples.

Results

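The genes described here encode parts of the red blood cell: the adult globins hbaa1, hbaa2, hbba1 and hbba2, the heme synthesis enzyme gene alas2, the erythroid nuclear protein gene hemgn, the membrane and skeleton genes slc4a1a, epb41b and sptb, and the iron uptake gene tfr1a. They were chosen by symbol, and all 10 stood on 1 row each among the 36351 gene rows of the count files. The libraries are bulk RNA-seq of cells that were sorted for dsRed from the skeletal tissue of 10-week-old zebrafish (weeks counted from fertilization). All fish carried the ctsk:dsRed transgene, a red reporter driven by sequence of the cathepsin K gene. Cathepsin K is the protease with which osteoclasts break down collagen. Fish labelled clcn7-/- were compared with their WT siblings, with 3 libraries per genotype, and the mutant allele is not described in the labels. clcn7 encodes a chloride/proton exchanger that osteoclasts need to dissolve bone. By its title, the study looked for osteogenic factors that non-resorbing osteoclasts release. Each library pooled cells of 2 fish, 5000 from each, so the spread between libraries is that between pools. Per the labels' protocols, both the ring and the pellet of a density gradient were kept, and live single cells were then sorted by dsRed. No antibody or second reporter was named for the sort.

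Red blood cells carry oxygen on hemoglobin, a tetramer of alpha and beta globin chains that each hold a heme group. Heme is built in steps that start with an aminolevulinate synthase, alas2 in erythroid cells, and need iron that enters the cell through the transferrin receptor. Under the membrane lies a mesh of spectrin, held to the anion exchanger band 3 and to protein 4.1, which keeps the cell from breaking in the circulation. Fish red cells keep their nuclei, and zebrafish switch from embryonic to adult globins as they grow. Zebrafish mutants with anemia are known for several of these genes, among them sauternes (alas2), retsina (slc4a1a), merlot and chablis (epb41b), riesling (sptb) and chianti (tfr1a).

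The libraries held 22739782 to 26951306 read counts over genes. Levels are given in CPM, counts per 1000000 counts over genes, with library sizes scaled by TMM, a trimmed mean of ratios between libraries. The lowest count of any of the 10 genes in a library was 23, of epb41b. The labels call the sorted cells osteoclasts, and ctsk itself spanned 464 to 1024 CPM over the WT libraries and 1055 to 1266 CPM over the mutant ones (log2 fold change 0.84 ± 0.30, edgeR adjusted p = 0.102). Of 11 osteoclast markers tested, csf1ra was called higher (1.75, edgeR adjusted p = 0.0493) and nfatc1 lower (-0.65, edgeR adjusted p = 0.0415). Over all genes tested, 9.91% were called higher and 4.83% lower. The other 9 markers were not called, and the median of the 11 was 0.37. When 1 library was left out, 0 to 4 of the 11 were called higher and 0 or 1 lower. Markers of other cells were present in every library as well: the summed CPM of 8 keratinocyte markers lay at 41220 to 50097 in WT and 15846 to 26033 in mutants, and that of 9 neutrophil markers at 150 to 242 in WT and 1419 to 1814 in mutants. The summed CPM of 9 osteoblast markers, collagen I genes included, lay at 52972 to 76625 in WT and 36619 to 53976 in mutants. In a bulk sample, more cells of a type and more RNA per cell cannot be told apart.

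Of the 10 erythroid genes, 8 were higher in mutants, none was lower and 2 did not pass the test (quasi-likelihood test of edgeR, p adjusted by Benjamini-Hochberg over 20438 genes, threshold 0.05). Over all genes tested, 9.91% were called higher and 4.83% lower. Fitted log2 fold changes ran from 0.87 to 2.87, with a median of 2.26 against -0.05 over all genes tested. In the same 8 genes every mutant library lay above every WT library, an arrangement found in 19.4% of all genes tested, while 17.6% had every mutant library below every WT library. The genes that did not pass were hbba2 and tfr1a. Beside these counts, macrophage and neutrophil markers had median log2 fold changes of 2.88 and 2.97, and keratinocyte markers -1.38. Whether a changed mix of cells takes part in the erythroid result was not tested.

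**Figure D1:**
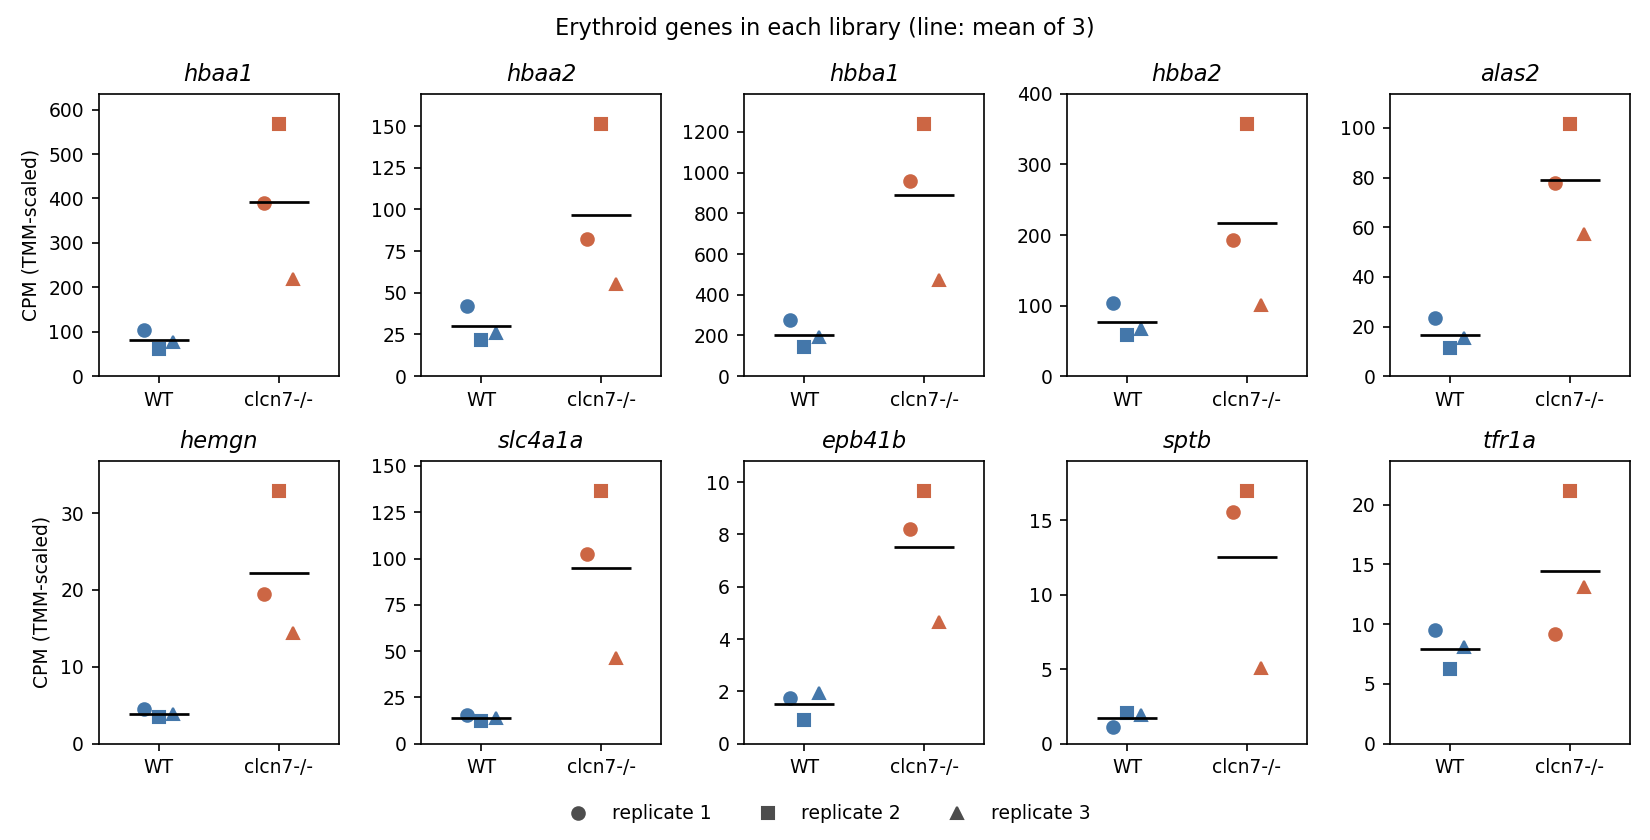
CPM of each of the 10 erythroid genes (vertical axes, TMM-scaled, from 0) in the 3 WT and 3 clcn7-/- libraries, with a line at the mean of each group and a marker shape for each replicate number. In 8 panels the groups are apart, hbba2 and tfr1a overlap, and clcn7-/- replicate 2 (squares) is the highest library in all 10 panels.

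The globins are described first. hbaa1 encodes an adult alpha chain. In CPM, and in the order of replicates 1, 2 and 3 used throughout, its WT libraries had 103, 61.5 and 77.5, and its mutant libraries 389, 568 and 219.7. The lowest mutant library lay above the highest WT library by more than the whole WT range, and the log2 fold change was 2.28 ± 0.36 (SE; edgeR adjusted p = 0.00641). hbba1 encodes an adult beta chain. It went from 276, 145 and 191 CPM in WT to 960.2, 1239.6 and 474 CPM in mutants, again without overlap (2.13 ± 0.38, edgeR adjusted p = 0.0104). The second copies of each chain had smaller fold changes. hbaa2, the other adult alpha gene, measured 41.9, 21.8 and 26 CPM in WT and 82.4, 151 and 55.4 CPM in mutants (1.69 ± 0.40, edgeR adjusted p = 0.0292). hbba2, the other adult beta gene, measured 103.9, 57.8 and 67.3 CPM in WT and 192, 358 and 100.8 CPM in mutants (1.51 ± 0.44, edgeR adjusted p = 0.0584). Its lowest mutant library, replicate 3, lay just under its highest WT library, replicate 1. Leaving out WT replicate 3 ended the edgeR call of hbba1 (adjusted p = 0.0539), and the call of hbaa2 was lost without WT replicates 2 (adjusted p = 0.105) or 3 (adjusted p = 0.113) or mutant replicates 1 (adjusted p = 0.0573) or 2 (adjusted p = 0.0541). Without mutant replicate 3, hbba2 passed (log2 fold change 1.85, edgeR adjusted p = 0.0189). It also passed in DESeq2, limma-voom, the fit with no low-count filter and the fit with library size alone, and its adjusted p over all alternatives lay between 0.00224 and 0.183.

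Reads of near-identical globins can be split between copies or dropped by the counting, so the 4 genes were also summed. The 4 adult globin genes together held 0.0505%, 0.0269% and 0.0340% of counts over genes in WT replicates 1, 2 and 3. In mutant replicates 1, 2 and 3 they held 0.165%, 0.246% and 0.0921%. The groups do not overlap, and the means were 0.0372% ± 0.0121 and 0.168% ± 0.0770 (SD, n = 3), a ratio of 4.51. Mutant replicate 2 is the highest and replicate 3 the lowest of the mutants, with a gap between them that is wider than that between replicate 3 and any WT library. The difference of the means was 0.130 percentage points, and 0.0914 without mutant replicate 2. No test is given for this sum, since the genes were chosen with results known and an exact permutation test of 3 against 3 libraries cannot go below p = 0.10.

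The make-up of the globin counts was compared next, and neither share passed its test. hbaa2 held 28.9%, 26.1% and 25.1% of alpha globin counts in WT and 17.5%, 21.0% and 20.1% in mutants. That is a mean of 26.7% ± 1.95 against 19.6% ± 1.85 (SD, n = 3 per group), with no overlap (exact two-sided permutation test, p = 0.10, the smallest it can give). On the beta side hbba2 held 27.4%, 28.4% and 26.0% of counts in WT and 16.7%, 22.4% and 17.5% in mutants. Its means were 27.3% ± 1.21 and 18.9% ± 3.08 (SD, n = 3 per group), again apart (exact two-sided permutation test, p = 0.10). The exact binomial 95% intervals of these shares cover counting error only, and none of a WT library met one of a mutant library, the closest being 23.4% to 26.9% for hbaa2 in WT replicate 3 and 20.5% to 21.6% in mutant replicate 2. Both shares were examined after the single-gene values had been seen. In the GRCz12tu annotation, which is not the assembly the authors used, hbba2 overlaps hbaa2. Reads that fall in more than 1 gene made up 3.75% to 4.35% of all rows' counts per library. How much of the shift depends on reads assigned between copies was not tested.

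The balance of alpha to beta counts overlapped between the genotypes. The ratio of hbaa1 plus hbaa2 to hbba1 plus hbba2 was 0.382, 0.410 and 0.4003 in WT and 0.409, 0.450 and 0.478 in mutants. Mutant replicate 1 lay within the WT range, and the means were 0.398 ± 0.0142 and 0.446 ± 0.0349 (SD, n = 3 per group). The exact two-sided permutation test, which cannot go below p = 0.10 here, gave p = 0.20. These are ratios of counts, not of molecules, since gene lengths are not taken into account.

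Counts of embryonic and larval globins were near 0 in both genotypes. Of 11 listed genes 9 had a row, and their summed counts were 19, 13 and 5 in WT libraries and 7, 26 and 2 in mutant libraries. None passed the low-count filter. hbae5, an embryonic alpha gene, had 15 counts in mutant replicate 2 and 5 in WT replicate 1, and none elsewhere. hbbe1.1, an embryonic beta gene, reached 7 counts, also in mutant replicate 2. hbbe1.2, hbbe1.3 and hbbe3 had 0 counts in all 6 libraries, which allows up to 0.0196 CPM of counted reads over the libraries together, by a limit of 3 counts. Reads of near-identical globins can be dropped by the counting, so this is no limit on the transcripts themselves.

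alas2 makes the first enzyme of heme synthesis in red cells and sets its pace there. It measured 23.3, 11.4 and 15.2 CPM in WT and 77.8, 101.7 and 57.2 CPM in mutants. All mutant libraries lay above the WT libraries by more than the whole WT range, and the log2 fold change was 2.24 ± 0.31 (edgeR adjusted p = 0.00422). The housekeeping form alas1 averaged 425 ± 111 CPM over WT and 421 ± 27.9 CPM over mutant libraries (SD, n = 3), with a log2 fold change of -0.01 ± 0.20. hemgn encodes hemogen, a nuclear protein known from mouse and human as a factor of erythroid differentiation. It went from 4.45, 3.43 and 3.87 CPM to 19.5, 32.8 and 14.3 CPM, with the WT libraries close together and all mutants far above them (2.50 ± 0.33, edgeR adjusted p = 0.00331). In the GRCz12tu annotation hemgn overlaps anp32b, whose own level was 82.5 CPM in WT and 84.6 CPM in mutants (0.04 ± 0.13, edgeR adjusted p = 0.894). alas2 overlaps a gene model without a descriptive name in that annotation, LOC141375627, which was not analysed here.

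Of the membrane genes, sptb and slc4a1a had the highest fold changes of the 10, and epb41b stood below hemgn. slc4a1a encodes band 3, the chloride/bicarbonate exchanger that anchors the membrane skeleton. Its levels were 15.5, 12.1 and 13.9 CPM in WT and 102.6, 136 and 46.3 CPM in mutants (2.78 ± 0.37, edgeR adjusted p = 0.00367). The WT libraries varied by 12.5% of their mean and the mutants by 47.8%. sptb encodes beta-spectrin, a rod of the skeleton mesh. It measured 1.14, 2.09 and 1.91 CPM in WT and 15.6, 16.9 and 5.11 CPM in mutants (2.87 ± 0.49, edgeR adjusted p = 0.00923). Here WT replicate 1 was the lowest WT library, whereas it was the highest for 8 of the other 9 genes. epb41b encodes protein 4.1, which ties spectrin to actin and to the membrane. It went from 1.73, 0.907 and 1.95 CPM to 8.22, 9.65 and 4.65 CPM, without overlap (2.29 ± 0.42, edgeR adjusted p = 0.0115). The calls of hbaa1, alas2, hemgn, slc4a1a, epb41b and sptb held in all 16 alternatives run, with adjusted p of at most 0.0410.

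tfr1a differed in its pattern from the other genes. It encodes a transferrin receptor, which zebrafish erythroid cells use to take up iron. It measured 9.52, 6.23 and 8.08 CPM in WT and 9.18, 21.1 and 13.1 CPM in mutants. Mutant replicate 1, the second highest mutant library for the other 9 genes, lay within the WT range for tfr1a, and the log2 fold change of 0.87 ± 0.33 did not pass (edgeR adjusted p = 0.119, between 0.0661 and 0.469 over the alternatives). tfr1b, the second transferrin receptor gene, averaged 147 ± 34.7 CPM over WT and 172 ± 14.4 CPM over mutant libraries (SD, n = 3; 0.22 ± 0.19, edgeR adjusted p = 0.487).

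The authors' deposited table gave log2 fold changes for the 10 genes between 0.88 for tfr1a and 2.88 for sptb. At an adjusted p under 0.05, 9 of the 10 were higher in the authors' deposited table, against 12.3% of all genes with an adjusted p there. hbba2 was among them in the authors' deposited table (log2 fold change 1.51, adjusted p = 0.0026), and tfr1a was not (adjusted p = 0.0771).

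Each of the other genes was also set against the globins of its own library. Per 1000 adult globin counts, slc4a1a had 29.6, 42.2 and 38.4 counts in WT and 63.2, 58.8 and 54.5 counts in mutants. The groups do not overlap, and the means were 36.7 ± 6.44 and 58.8 ± 4.34, a ratio of 1.60 (SD, n = 3 per group; exact two-sided permutation test, p = 0.10, the smallest it can give). hemgn had 8.47, 12.0 and 10.7 counts in WT and 12.0, 14.2 and 16.9 counts in mutants per 1000 globin counts, with the lowest mutant library only just above the highest WT library. Relative to the globins, tfr1a went the other way, from 18.1, 21.8 and 22.3 counts to 5.65, 9.11 and 15.4 counts, with all mutants below all WT libraries (ratio of means 0.485, n = 3 per group; exact two-sided permutation test, p = 0.10). The level of tfr1a itself was not lower, with a log2 fold change of 0.87 that did not pass. The globin counts, with a ratio of mean shares of 4.51, are the denominator of all these ratios. For alas2 the ratio of mean counts per 1000 globin counts was 1.26, for epb41b 1.24 and for sptb 1.55. These 3 genes overlapped between groups, with exact two-sided permutation p of 0.20, 0.30 and 0.20 at n = 3 per group. The tests form a family of 9 ratios within libraries, counting those of the globins above. Their Benjamini-Hochberg adjusted p were 0.18 for the 5 at 0.10, 0.225 for the 3 at 0.20 and 0.30 for epb41b. None could have passed 0.05, since the smallest p that 3 against 3 libraries can give is 0.10.

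**Figure D2:**
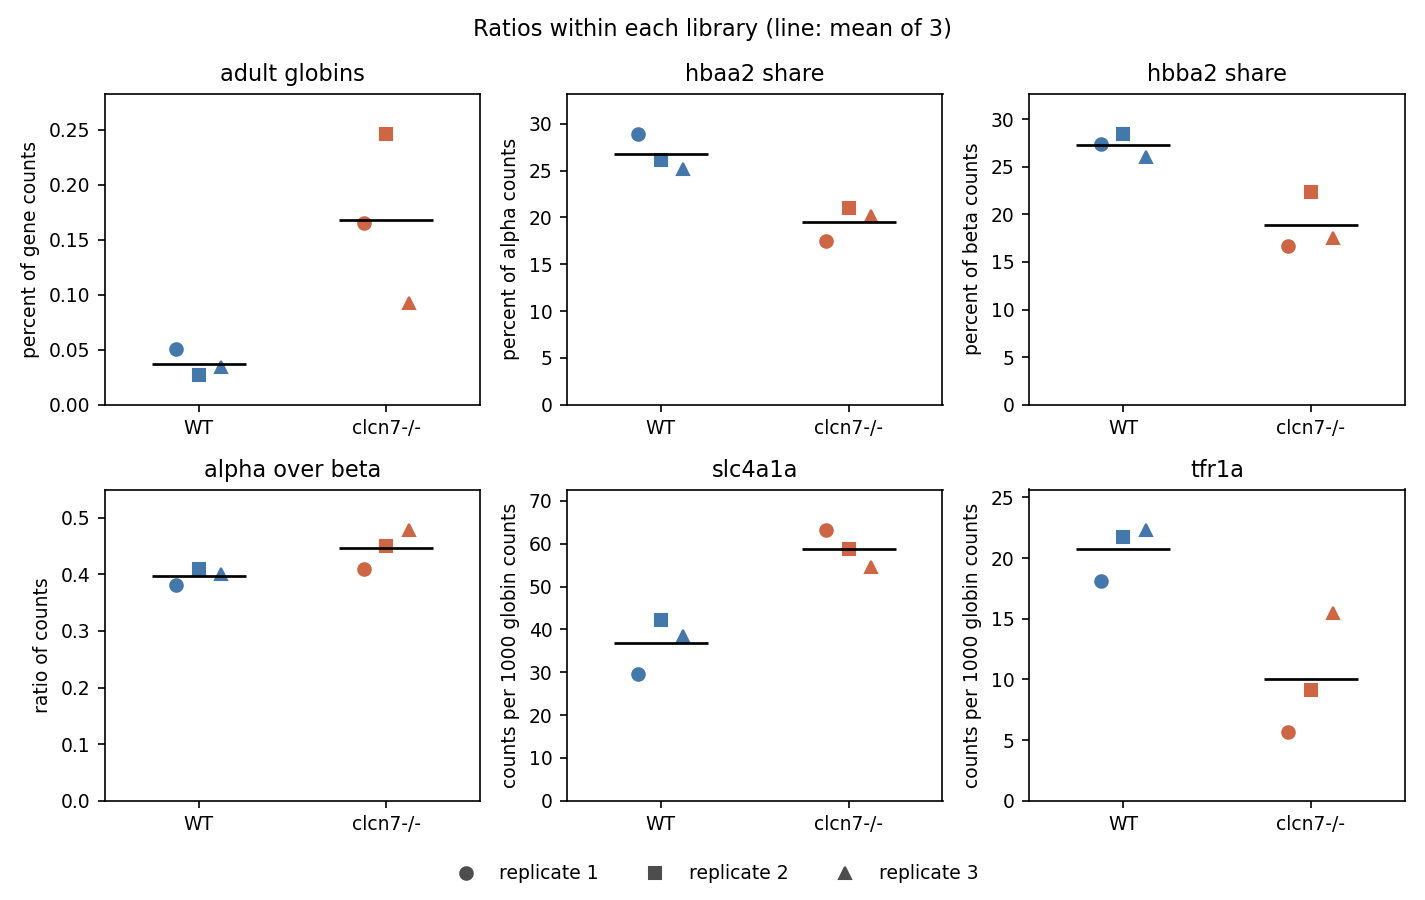
Quantities formed within each library (vertical axes, from 0): adult globins as a percent of gene counts, hbaa2 and hbba2 as a percent of alpha and beta counts, the alpha to beta ratio, and slc4a1a and tfr1a counts per 1000 adult globin counts, with a line at the mean of 3 libraries. The hbaa2 and hbba2 shares and tfr1a relative to the globins lie lower in every clcn7-/- library than in every WT library. The globin share and slc4a1a relative to the globins lie higher, and the alpha to beta ratios overlap.

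The 10 genes kept a common order across the mutant libraries. All 10 were highest in mutant replicate 2, and 9 of them, all but tfr1a, ran from replicate 2 through replicate 1 to replicate 3. Over all genes tested, 30.5% were highest in mutant replicate 2 and 17.7% had that full order. The level in replicate 2 was between 1.61 times (tfr1a) and 3.55 times (hbba2) that in replicate 3. In WT, 8 of the 10 ran from replicate 1 through replicate 3 to replicate 2, with epb41b and sptb as the exceptions. As a description, the correlation of log2 CPM of each gene with the mean of the other 9 over the 6 libraries lay between r = 0.804 for tfr1a and r = 0.999 for hbaa1. When only deviations from the group means were used, r lay between 0.499 for sptb and 0.993 for hbaa1. The genes share libraries and depth, so these values describe the libraries and not independent observations.

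Marker lists of other cell types differed in which mutant library was highest, and some shared the peak of the 10 genes in replicate 2. Among the mutants, all 6 endothelial markers were highest in replicate 2, where their summed level was 394 CPM against 138 and 174 CPM in mutant replicates 1 and 3 and 97.4 to 146 CPM in WT. Of the 6, kdr and tie1, which encode receptors of vessel cells, were called higher in the fit of all libraries, beside 9.91% of all genes tested. Neither was called when any 1 of the WT libraries was left out or with glmTreat, a test against a fold of 1.5, and 1 was called without mutant replicate 2 or 3. In the fit of all libraries the other 4 were not called, and pecam1 had a negative log2 fold change (-0.45, edgeR adjusted p = 0.606). In mutant replicates 1 and 3, kdrl (8.53 and 9.47 CPM) and pecam1 (6.62 and 4.36 CPM) lay below every WT library. Their lowest WT libraries had 10.0 and 7.40 CPM. All 8 keratinocyte markers were likewise highest among the mutants in replicate 2. Of the 9 macrophage markers none was highest in that replicate and 7 were highest in replicate 3, in which the erythroid genes other than tfr1a were lowest. The summed macrophage level was 2501, 1356 and 2993 CPM in mutant replicates 1, 2 and 3 and 255 to 473 CPM in WT. Lymphocyte markers were all highest in mutant replicate 3 (9 of 9, summed level 19.4 to 26.1 CPM in WT and 30.8 to 93.0 CPM in mutants). That replicate was the highest mutant library for 35.9% of all genes tested, and cd8a alone had 33.6 CPM there. Neutrophil markers were highest in mutant replicate 2 for 5 of 8 tested genes. Thrombocyte markers, which share the transcription factor gata1a with red cells, overlapped in their summed level, at 445 to 626 CPM in WT and 424 to 615 CPM in mutants. That sum is mostly fn1b and thbs1b, with mean levels of 326 and 162 CPM over WT libraries, and the median log2 fold change of the 8 tested markers was 0.97. Of these 8, selp was called higher (3.61, edgeR adjusted p = 0.000547). Without passing, gp9 (1.64, edgeR adjusted p = 0.0923) and gp1bb (1.73, edgeR adjusted p = 0.0795) lay higher in every mutant than in every WT library. Also without passing, thbs1b (-0.60, edgeR adjusted p = 0.0566) and itgb3b (-0.27, edgeR adjusted p = 0.202) lay lower in every mutant library. Of all genes tested, 19.4% had every mutant library above and 17.6% every mutant library below every WT library. No marker of these lists was at 0 in all 6 libraries. Without mutant replicate 2, 7 of the 10 erythroid genes were called higher. The part of these cell types in the erythroid result was not tested.

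**Figure D3:**
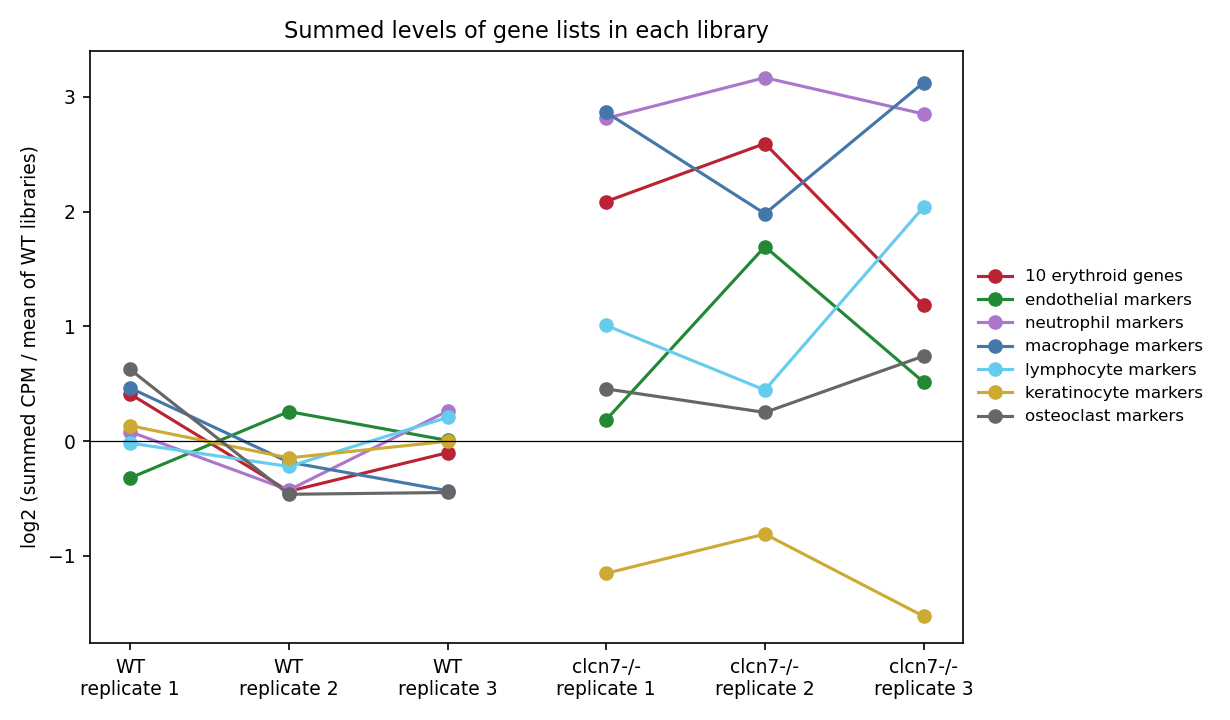
Summed CPM of the 10 erythroid genes and of 6 marker lists in each library, as log2 of the ratio to the mean of the 3 WT libraries (vertical axis), with points joined within a genotype only to guide the eye. Among the clcn7-/- libraries the erythroid, endothelial, neutrophil and keratinocyte sums peak in replicate 2. The macrophage, lymphocyte and osteoclast sums are lowest there.

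Wider erythroid lists moved less evenly than the 10 genes. Of 76 other listed genes 71 had a row and 60 were tested. Of these, 21 were called higher and 3 lower, beside 9.91% and 4.83% of all genes tested. The median log2 fold change of the 60 was 0.63. The 21 became 10 when WT replicate 2 was left out, 12 when WT replicate 3 was, and 13 when mutant replicate 1 was.

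Regulators of erythroid cells were called higher for 7 of 14 tested genes and lower for none, beside 9.91% and 4.83% of all genes tested. Their median log2 fold change was 1.5. klf1, the factor that switches on adult beta globin in mammals, went from 1.69, 1.54 and 1.17 CPM to 12.5, 8.87 and 6.29 CPM (2.65 ± 0.35, edgeR adjusted p = 0.00341). gata1a, a master factor of red cells that thrombocytes also use, went from 1.06, 1.105 and 0.652 CPM to 4.42, 6.03 and 4.65 CPM (2.41 ± 0.37, edgeR adjusted p = 0.00596). Neither gene had overlapping groups. In the mutants klf1 was highest in replicate 1 and gata1a in replicate 2. The 7 became 4 without WT replicate 2 or mutant replicate 2.

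Among 9 tested genes of other heme synthesis enzymes, 2 were called higher and none lower, beside 9.91% and 4.83% of all genes tested. Their median was 0.78. In 7 of the 9 every mutant library lay above every WT library, an arrangement found in 19.4% of all genes tested. hmbsb, a gene of hydroxymethylbilane synthase, the third step of the path, went from 4.998, 4.62 and 5.65 CPM to 23.7, 19.9 and 14.7 CPM (1.93 ± 0.23, edgeR adjusted p = 0.00231). urod, uroporphyrinogen decarboxylase, went from 22.9 ± 2.47 to 39.2 ± 3.85 CPM (SD, n = 3; 0.78 ± 0.15, edgeR adjusted p = 0.0141), and its call was lost without WT replicate 2 (adjusted p = 0.0540). With library size alone 6 of the 9 were called higher, and in DESeq2 7.

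For transport of heme and iron, 3 of 11 tested genes were called higher and 2 lower, beside 9.91% and 4.83% of all genes tested. Their median was 0.30. slc25a37, mitoferrin, which brings iron into the mitochondria of red cells, went from 4.93 ± 0.450 to 11.03 ± 2.11 CPM (SD, n = 3; 1.16 ± 0.23, edgeR adjusted p = 0.0158). Its call was lost without WT replicate 3 (adjusted p = 0.0597) or mutant replicate 1 (adjusted p = 0.0595). slc11a2, a divalent metal importer, rose from 33.0 ± 2.76 to 52.5 ± 2.41 CPM (0.67 ± 0.13, edgeR adjusted p = 0.0147), but did not pass without WT replicates 2 (adjusted p = 0.0604) or 3 (adjusted p = 0.0642). The heme exporter gene flvcr1 fell, from 10.8 ± 2.64 to 4.60 ± 1.69 CPM (-1.23 ± 0.32, edgeR adjusted p = 0.0431), as did slc48a1a, a gene of the heme importer HRG1 (-0.62 ± 0.15, edgeR adjusted p = 0.0307). Each of these falls passed in 1 of the 6 fits that left out a library, with adjusted p up to 0.129 for flvcr1 (without WT replicate 1) and 0.137 for slc48a1a (without WT replicate 3), and neither passed with library size alone (adjusted p = 0.0560 and 0.0738). The 3 called higher became 1 without WT replicate 2 or mutant replicate 1 and 0 without WT replicate 3.

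Membrane and skeleton genes outside the 10 were called higher for 6 of 16 tested genes and lower for none. Over all genes tested, 9.91% were called higher and 4.83% lower. The median of the 16 was 0.65, and some had a negative log2 fold change that did not pass. Among them were slc2a1a (-4.48, edgeR adjusted p = 0.164), which ranged from 0 to 8.17 CPM over the WT libraries, and ank1b (-0.98, edgeR adjusted p = 0.343). add2, beta-adducin, which caps the actin of the skeleton, went from 1.22, 1.18 and 0.738 CPM to 6.06, 8.14 and 3.83 CPM (2.51 ± 0.41, edgeR adjusted p = 0.00752), in the same mutant order as the globins. mpp1, which encodes a scaffold protein of the red cell membrane that leukocytes also make, went from 63.1, 40.8 and 35.4 CPM to 135.5, 102.3 and 165 CPM (1.53 ± 0.26, edgeR adjusted p = 0.00931), with replicate 2 as its lowest mutant library. The 6 became 2 when replicate 1 or 2 of either genotype was left out, and add2 and mpp1 were called in all 16 alternatives run.

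Other red cell enzymes were called higher for 3 of 10 tested genes and lower for 1, beside 9.91% and 4.83% of all genes tested. Their median was 0.27. gpx1a, a glutathione peroxidase that removes hydrogen peroxide in many cell types, went from 87.0, 91.5 and 94.8 CPM to 363, 298 and 365 CPM (1.91 ± 0.14, edgeR adjusted p = 0.000663), again with replicate 2 as its lowest mutant library. blvrb, a biliverdin and flavin reductase, went from 43.9 ± 3.61 to 71.4 ± 4.09 CPM (0.70 ± 0.13, edgeR adjusted p = 0.0124), a call lost without WT replicates 2 (adjusted p = 0.0558) or 3 (adjusted p = 0.0534). nt5c3a, a pyrimidine nucleotidase that clears RNA breakdown products from maturing red cells, fell from 64.1 ± 3.75 to 43.1 ± 0.805 CPM (-0.57 ± 0.12, edgeR adjusted p = 0.0205). That fall passed in 2 of the 6 fits that left out a library, with adjusted p up to 0.1075 without WT replicate 3, and not with library size alone (adjusted p = 0.0562). The 3 called higher became 1 without WT replicate 2 or 3.

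**Figure D4:**
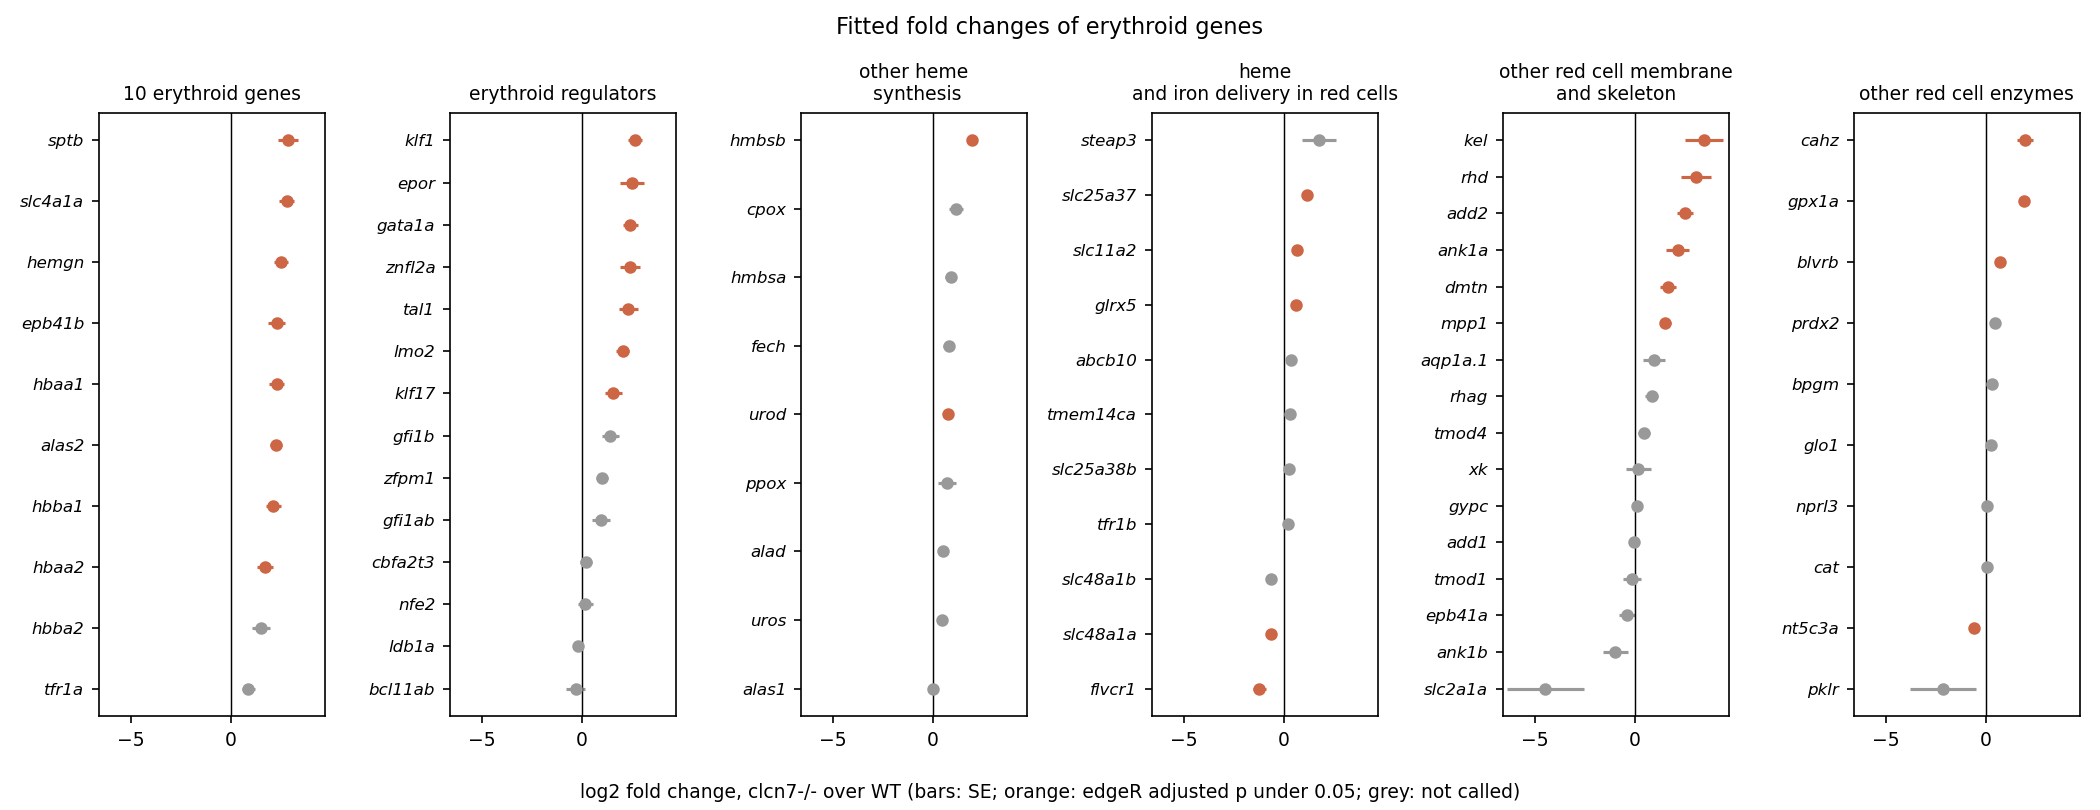
Fitted log2 fold changes of clcn7-/- over WT (horizontal axis) with SE bars for the 10 erythroid genes and for the tested genes of 5 wider lists, in orange where the edgeR adjusted p is under 0.05 and in grey otherwise. The 10 genes lie between 0.87 and 2.87, while the wider lists hold genes on both sides of 0.

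The genes outside the 10 whose log2 CPM over the 6 libraries was most like the mean of the 10 had Pearson r of 0.997 (atg16l1), 0.989 (st6gal2a), 0.983 (tspan14), 0.982 (scamp4) and 0.980 (ch25hl2), among genes with a mean of at least 10 CPM. Of the 10300 genes with a mean of at least 10 CPM, whatever their name, 73 had r of at least 0.95, the erythroid genes among them included. The neutrophil markers npsn (r = 0.965) and mpx (r = 0.954) were also among the 73. The other neutrophil markers tested lay below 0.95. atg16l1 encodes a component of the autophagy machinery, and it went from 27.0, 21.0 and 23.2 CPM in WT to 43.5, 52.1 and 34.5 CPM in mutants (0.87 ± 0.19, edgeR adjusted p = 0.0220). Its order within both genotypes was that of hbaa1, but its fold change was that of tfr1a in size. The call was lost without WT replicates 2 (adjusted p = 0.0846) or 3 (adjusted p = 0.0855) or mutant replicates 1 (adjusted p = 0.0636) or 2 (adjusted p = 0.0549). ch25hl2 encodes a relative of cholesterol 25-hydroxylase, and its change was of the size of the globins, from 4.17 ± 1.296 to 21.2 ± 9.93 CPM (SD, n = 3; 2.35 ± 0.38, edgeR adjusted p = 0.00761). st6gal2a, a sialyltransferase gene, had a fitted value of 1.146 ± 0.20 on the log2 scale (edgeR adjusted p = 0.0093), scamp4 had 0.76 ± 0.15 (edgeR adjusted p = 0.0138), and tspan14 had a value of 0.42 ± 0.13 that did not pass (edgeR adjusted p = 0.0748). The call of scamp4 was lost without WT replicates 2 (adjusted p = 0.0559) or 3 (adjusted p = 0.0574) or mutant replicate 1 (adjusted p = 0.0513). A correlation over 6 libraries sets apart the genotypes first, so likeness of this kind is a description of these libraries.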

How the data were processed

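RNA from 3 WT and 3 clcn7-/- pools of sorted dsRed-positive cells was sequenced from ultra-low input libraries, per the labels' protocols. Reads were handled with STAR 2.7.0a, HTSeq 0.9.1, Trim Galore and DESeq2 on GRCz11, per the submitters' processing notes. The annotation and the strand setting are not given, so reads of overlapping genes cannot be assigned with certainty. The deposited values are whole read counts per gene. In each library 20.1% to 23.0% of the counts stood on 5 rows that name no gene, and these rows were not used. The authors' deposited table holds log2 fold changes, adjusted p-values and log2 values per library, per the file headers.

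Counts were tested with edgeR 4.0.16 in R 4.3.3: filterByExpr (minimum count 10, minimum total 15), TMM, quasi-likelihood fits on genotype alone, and Benjamini-Hochberg adjustment over 20438 genes. The SE is the log2 fold change divided by the square root of F. The edgeR fit on genotype alone was tested on simulated counts with the same dispersion for every gene. The alternatives were not tested in this way. Ratios within libraries were compared with exact two-sided permutation tests (scipy 1.17.1). Alternatives were other scalings and filters, DESeq2 1.42.0, limma-voom (limma 3.58.1), a replicate block, glmTreat and leaving out each library. Named genes are the 10, up to 2 per direction with the smallest p in each wider list (the 2 most abundant where none was called), and the 5 nearest in profile. Genes named as a clone, locus or model, or with a mean under 10 CPM, could not be among those 5. The genes tfr1b, alas1, anp32b, ank1b, slc2a1a, hbbe1.2, hbbe1.3, hbbe3 and all named cell type markers were chosen after their values were seen. The members and lists were chosen with earlier results of these data known. The labels call the libraries biological replicates.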

Additional observations from a re-analysis of the deposited data

How the results depend on the processing

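The 10 genes were refitted under 16 alternatives, which gave 160 values. Of these, 149 kept the direction and the side of the threshold, and none reversed. The number of the 10 called higher lay between 6 (without WT replicate 3) and 9 (library size alone, DESeq2 or without mutant replicate 3, among others), and 6 genes were called in all 16. None was called lower in any of the alternatives, DESeq2 included, and none of the 10 had a negative log2 fold change. The other erythroid genes called higher numbered 21 in the edgeR fit of all libraries. They numbered 10 with glmTreat against a fold of 1.5 and 10 to 18 when 1 library was left out, but 28 with library size alone and 29 with DESeq2. Over all genes, those called higher numbered 2025 in the edgeR fit of all libraries, 1057 with glmTreat and 1157 to 1828 without 1 library. They numbered 2626 with library size alone and 2744 with DESeq2. Those called lower numbered 1675 with upper-quartile factors, 564 with library size alone, 1921 with DESeq2, 134 with glmTreat and 199 to 737 without 1 library. Upper-quartile factors moved the median log2 fold change of all genes from -0.05 to -0.16, and library size alone moved it to 0.10, against a lowest value of 0.49 for any of the 10 genes under any alternative. Leaving the globin rows out of the scaling changed no call of the 10. Replicate numbers were not shown to pair the samples: deviations of same-numbered libraries correlated at 0.236, 0.0332 and 0.162. With the replicate number as a block, 8 of the 10 genes were called higher, and exact sign-flip permutation tests of the paired ratios cannot go below p = 0.25. Of 288 values for the other named genes, 244 kept the direction and the side of the threshold; none of these 288 or of 40 for the ratios reversed. Leaving out a library gave differences of 0.0914 to 0.168 percentage points in the globin share, 0.0322 to 0.0669 in the alpha to beta ratio and 21.7 to 35.7 in non-globin counts of the 10 genes per 1000 globin counts. The alternatives for the hbaa2 and hbba2 shares were chosen after seeing the data, and their values kept their direction. The lowest counts of epb41b and sptb in a library were 23 and 29, so counting error is widest there.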
